A study of Caenorhabditis elegans with 12 samples.

Results

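The cytosolic ribosomal protein genes of C. elegans were followed across both strains and both temperatures of a heat shock (HS) experiment. Members were all protein-coding genes whose name in the WBcel235 annotation starts with rpl- or rps- or is rla-0, rla-1 or rla-2. This rule uses names only and gave 81 genes of 19901 protein-coding genes, of which 47 are rpl- genes for the large subunit, 31 are rps- genes for the small subunit and 3 are rla- genes for the stalk. A ribosomal protein gene without such a name is not a member.

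Ribosomes are built from RNA and from proteins that are made in matched amounts, so in growing animals the genes for these proteins are among the most highly transcribed. The small subunit reads the message, the large subunit joins the amino acids, and the stalk of the large subunit recruits the elongation factors that drive each step. Heat shock is known from many organisms to lower translation and the production of new ribosomes while chaperone genes are induced.

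Total RNA had been sequenced after removal of ribosomal RNA from whole L4 animals, the last larval stage, with 3 libraries in each of 4 groups. WT was Bristol N2, and miR-85(n4117) carries a deletion that removes the microRNA gene mir-85 and part of its host gene F49E12.8. Animals of each strain were kept at 20°C for 47 hrs, or grown at 20°C for 44 hrs and then held at 35°C for 3 hrs. No other allele or agent was used in these 4 groups, the mutant is a single strain and each library holds RNA of all tissues of a population.

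Total counts per library ranged from 23871531 to 38586076, of which 9505142 to 29652439 fell on protein-coding genes. Ribosomal RNA genes held 13.7% to 65.5% of all counts, and the highest share was that of WT replicate 3 at 20°C. By the headers, lane 8 held WT replicates 2 and 3 of both temperatures, and lane 3 held all else. The microRNA mir-85 had 0 counts in all 6 mutant libraries and 0 to 9 in WT, and F49E12.8 had 0 to 11 in the mutant against 78 to 220 in WT. The chaperone gene hsp-70 had 31 to 2056 counts at 20°C and 102477 to 167035 at 35°C. All 4 intestine, 4 muscle, 4 neuron and 4 molting markers and all 6 hypodermis markers were detected in every library.

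The members are short genes spread unevenly over the genome. Their merged exons measured 236 to 1456 bases with a median of 530, against a median of 1163 for all protein-coding genes, and they had a median of 3 exon blocks against 5. Chromosome I held 25 members, which is 30.9% of them, while it holds 14.4% of all protein-coding genes. Chromosomes III and IV held 18 each, II held 10 and V held 8. The X chromosome held only rpl-11.2 and rpl-25.1, although it has 13.6% of protein-coding genes, and both have an autosomal copy, rpl-11.1 on V and rpl-25.2 on I. Small RNA genes lay inside several members on the same strand, with 19 snoRNA genes, which guide the modification of ribosomal RNA, and the microRNA genes mir-353 in rpl-24.1 and mir-354 in rps-20. The members rps-4, rpl-5, rpl-7 and rpl-23 overlap another protein-coding gene on the same strand, so reads of the overlap are uncertain, while counting by strand separates antisense genes.

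Levels were compared between genes as RPKM, the counts per kilobase of merged exon scaled to the library's protein-coding counts. On this scale the median member had 3719 RPKM in WT at 20°C, while the median protein-coding gene had 4.85. Of the 81 members, 68 were among the 100 highest protein-coding genes in WT at 20°C and 77 among the 200 highest. The same numbers were 68 and 77 in WT at 35°C, and 69 and 76 in miR-85(n4117) at each temperature. The tightly ranked middle of the list cannot be ordered, since only 5 of the 80 neighbouring pairs had ranges over the 3 WT libraries that did not overlap.

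**Figure D1:**
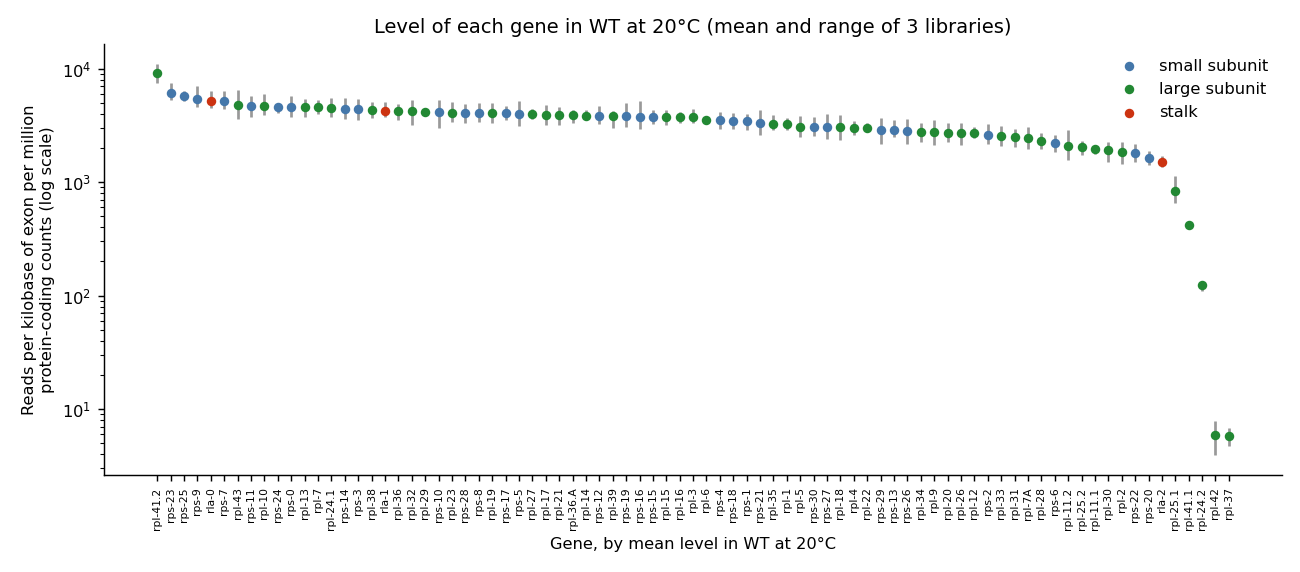
Level of each of the 81 genes in WT at 20°C in RPKM (reads per kilobase of exon, scaled to protein-coding counts) on a log axis. Points are means and lines the range of 3 libraries. Most genes lie within a narrow band around 3719, and rpl-24.2, rpl-42 and rpl-37 fall far below it.

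At the top stood rpl-41.2, which encodes the tiny basic protein of the large subunit, with 9081 ± 1847 RPKM (SD, n = 3). Next came rps-23, whose protein sits at the decoding centre, with 6116 ± 1127, and rps-25 with 5770 ± 593. The small subunit gene rps-9 had 5399 ± 1404 and rla-0, the base of the stalk, 5155 ± 1058 (SD, n = 3 each). The ranges of rps-23, rps-25, rps-9 and rla-0 overlapped, so that their order is not resolved.

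The lower end held the minor copies. The X-linked rpl-25.1 had 840 ± 252 RPKM and rpl-41.1 had 415 ± 11.9. The protein of rpl-24.2 is related to a human factor of large subunit assembly, and the gene had 124 ± 13.9 (SD, n = 3 each). The 2 lowest members were at the level of an average gene and not of a ribosomal protein gene, with 5.90 ± 1.95 for rpl-42 and 5.83 ± 1.05 for rpl-37. The single-exon gene rpl-37 lies on chromosome III from 3528642 to 3528917 and had 20 to 53 normalized counts per library. The gene rpl-42 lies on chromosome II from 11092713 to 11094022 and had 64 to 127. Whether reads of similar genes contribute to these values was not tested.

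As a body the members held a large and variable part of the messenger RNA counts. Their share of protein-coding counts in WT at 20°C was 13.4% in replicate 1, 15.2% in replicate 2 and 19.2% in replicate 3. In WT at 35°C it was 15.02%, 17.7% and 17.4% in replicates 1, 2 and 3. In miR-85(n4117) it was 13.7%, 14.1% and 14.5% at 20°C, and 15.3%, 14.5% and 16.478% at 35°C. WT replicate 3 at 20°C was the highest of all 12 libraries. As a share of all counts, ribosomal RNA included, the same library was the lowest of 12 at 5.98%, and the order of the strains at 20°C turned, with means of 8.73% in WT and 11.3% in the mutant. By protein-coding counts the 3 mutant libraries at 20°C were the most alike. After HS every mutant library was above every mutant library at 20°C, but only just. Mutant replicate 2 at 35°C had 14.48% and mutant replicate 3 at 20°C 14.45%. The WT groups overlapped. The means were 15.9% ± 2.98 and 16.7% ± 1.45 in WT, and 14.1% ± 0.356 and 15.4% ± 1.00 in the mutant (SD, n = 3 each). In RNA of whole animals, a change in the number of cells of a type and a change in RNA per cell cannot be told apart.

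**Figure D2:**
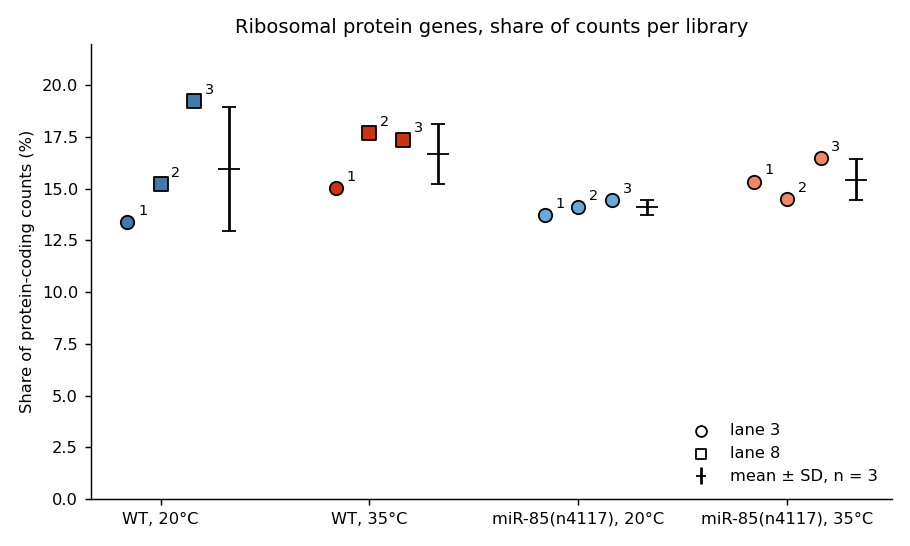
Share of protein-coding counts on the 81 genes in percent, per library. Points are libraries with their replicate number, circles are lane 3 and squares lane 8, and the bars give the mean ± SD of 3 libraries. WT replicate 3 at 20°C stands highest at 19.2%.

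Both subunits took part in these differences. The ratio of large to small subunit counts stayed between 1.24 and 1.31 in the 12 libraries, with the lowest value in WT replicate 3 at 20°C and the highest in WT replicate 2 at 20°C. The stalk genes held 0.658% to 0.960% of protein-coding counts. The libraries of lane 8 had higher shares than the WT library of lane 3 at either temperature, and the lane is not balanced over the strains. Within lane 3 the share was 13.4% in the WT library against 13.7% to 14.5% in the mutant at 20°C, and 15.02% against 14.5% to 16.478% at 35°C. Across the 12 libraries the share was higher where ribosomal RNA took more counts (Pearson's r = 0.78, Spearman's rho = 0.60), a description in which both values come from the same library. Without WT replicate 3 at 20°C these were r = 0.60 and rho = 0.48 over 11 libraries. The share was lower where the mitochondrial ribosomal protein genes held more (r = -0.90, rho = -0.81, and r = -0.83 without that library), and higher where the 4 intestine markers did (r = 0.88, rho = 0.68, and r = 0.78 without it). The intestine markers held 0.202% of protein-coding counts in that library against 0.0663% to 0.146% in the other 11. The part of these values in the members' share was not tested.

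The members moved together from library to library. Relative to each gene's own mean over the 12 libraries, on a log2 scale of normalized, depth-scaled counts (CPM), the median member was at 0.45 in WT replicate 3 at 20°C, and 80 of 81 members were above their mean there. WT replicates 2 and 3 at 35°C were at 0.32 and 0.31, again with 80 of 81 above. WT replicate 1 at 20°C was lowest at -0.30 with 2 of 81 above, and the mutant libraries at 20°C were at -0.29, -0.25 and -0.24. For 57 members the highest of all 12 values was that of WT replicate 3 at 20°C. Within the WT group at 20°C that replicate was the highest for 80 of 81 members.

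**Figure D3:**
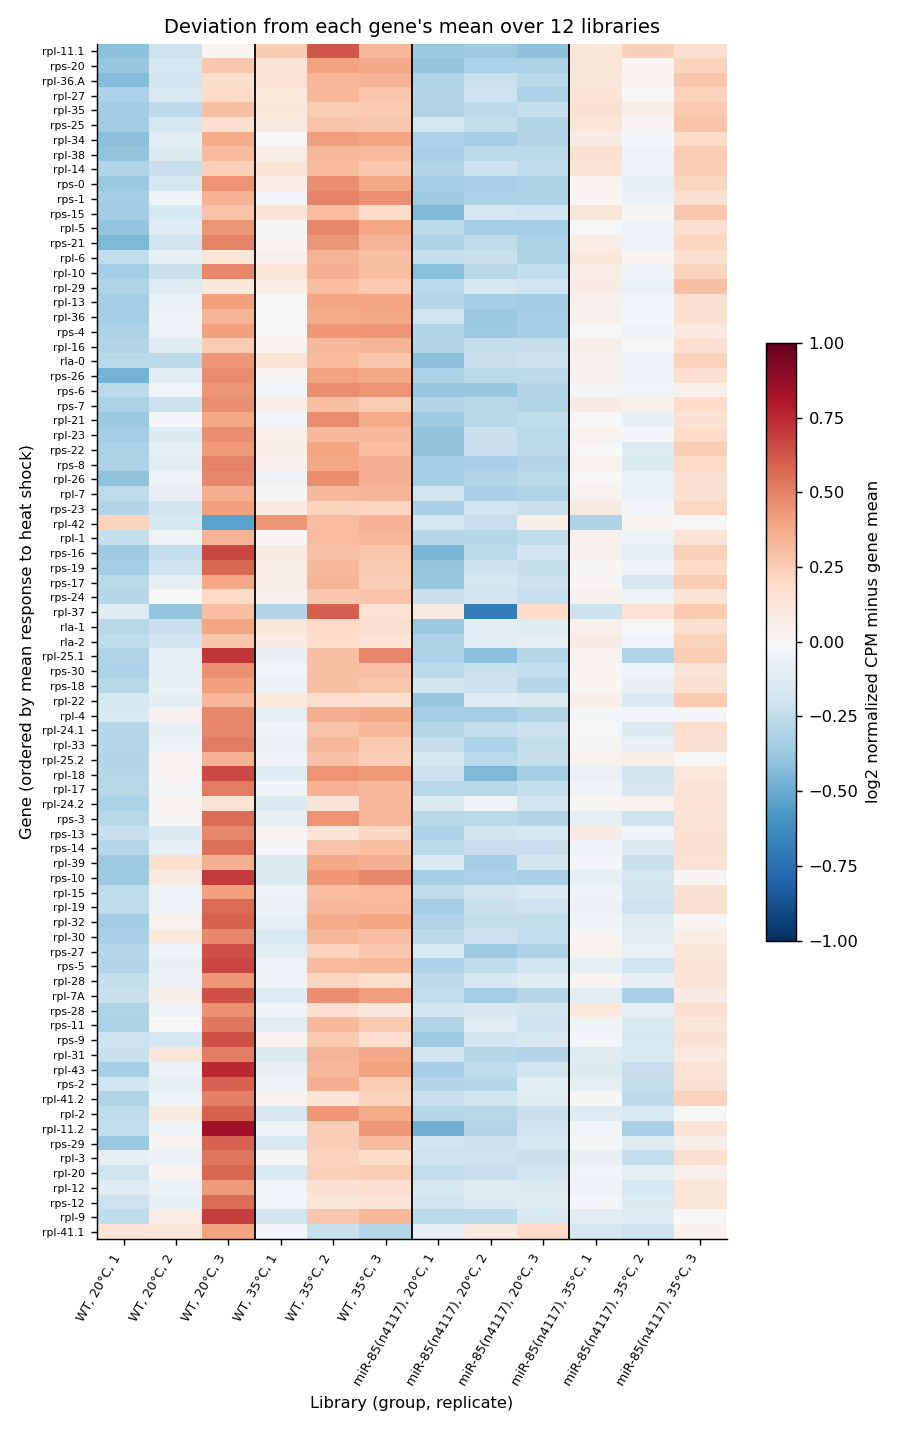
Log2 normalized CPM of each gene minus its own mean over the 12 libraries, from -1 (blue) to 1 (red), with genes as rows ordered by their mean response to HS and libraries as columns. Nearly whole columns share a colour, and WT replicate 3 at 20°C is red for 80 of 81 genes while WT replicate 1 at 20°C is blue for 79.

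Taken over the 4 groups, the median spread within groups was nonetheless smaller than for all well-measured protein-coding genes. Among 79 members with a mean over 1000 counts the coefficient of variation within groups, in counts scaled to protein-coding counts, had a median of 11.6%. Over all 3325 protein-coding genes above that mean it was 17.8%. This is a comparison of medians without a test, and the sets were not matched for level. Most of the 79 members lay far above 1000 counts, and the part of level in the difference was not tested. The spread was not even over the groups. The members' share had an SD of 2.98 in WT and 0.356 in the mutant at 20°C (percent of protein-coding counts, n = 3 each). The members also hold 13.4% to 19.2% of the counts used for this scaling.

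The first comparison asked how the genes responded to HS in WT. One member, rpl-11.1, was higher after HS by edgeR's quasi-likelihood test with Benjamini-Hochberg adjustment over all genes tested (adjusted p under 0.05), and none was lower. That is 1 of 81 members against 10.9% of all protein-coding genes tested in the higher direction and 9.94% in the lower. The median log2 fold change of the members was 0.15 (all protein-coding genes 0.01). Of 81 members 73 were above 0 (50.9% of all genes), and 4 had an unadjusted p under 0.05 (36.1% of all genes). No member was called with a change of at least 2-fold, which 5.89% of protein-coding genes were in the higher and 5.23% in the lower direction. The 95% intervals of 80 of the 81 log2 fold changes lay within a 2-fold change in either direction, the exception being the sparsely counted rpl-37. With the protein-coding total as library size the members' median was 0.05 in WT with 51 of 81 above 0, and 0.12 in the mutant with 75 of 81 above 0, while the median of all genes also moved down.

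The WT result depended on single libraries. Without WT replicate 3 at 20°C, 20 members were higher after HS and none was lower, beside 9.41% of protein-coding genes higher and 8.45% lower, and the median was 0.40. DESeq2 without that library called 29 members higher and none lower (9.93% and 8.79% of genes). With all libraries DESeq2 called 1 higher, rpl-11.1, and 1 lower, rpl-41.1 (10.6% and 9.72% of genes). Without WT replicate 1 at 20°C, in contrast, the median was 0.01 with 41 of 81 members above 0, and no member was called (6.41% of genes higher, 6.08% lower). No member was called without WT replicate 2 at 20°C either (median 0.08, 5.36% of genes higher and 6.00% lower), or without WT replicate 2 at 35°C (median 0.09, 7.02% and 6.15%). Same-numbered WT libraries gave median log2 CPM differences of 0.26 for replicate 1, 0.41 for replicate 2 and -0.15 for replicate 3, with 79, 80 and 18 of 81 members higher after HS.

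The 20 members called without that library included genes of all parts of the ribosome. After rpl-11.1 the largest were 3 small subunit genes, rps-21 at 0.60 ± 0.16 on the log2 scale (SE, adjusted p = 0.0313, edgeR), rps-0 at 0.59 ± 0.16 (adjusted p = 0.0306) and rps-20 at 0.59 ± 0.14 (adjusted p = 0.0198). The large subunit gene rpl-36.A was at 0.58 ± 0.14 (adjusted p = 0.0194) and rpl-35, whose protein lies near the exit of the peptide tunnel, at 0.51 ± 0.13 (adjusted p = 0.0199). The stalk base rla-0 was at 0.51 ± 0.14 (adjusted p = 0.0313). With all 3 WT libraries at 20°C none of these besides rpl-11.1 was called, rps-21 included. The adjusted p (edgeR) was then 0.331 for rps-0, 0.139 for rps-20, 0.108 for rpl-36.A, 0.279 for rpl-35 and 0.437 for rla-0. The exclusion, and the naming of rps-21 and rps-0, came after the values had been seen.

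In miR-85(n4117), whose groups do not contain that library, again only rpl-11.1 was called higher and none lower, 1 of 81 against 7.01% of protein-coding genes higher and 6.28% lower. The median log2 fold change was 0.29 (all protein-coding genes 0.03). Of 81 members 80 were above 0 (52.3% of all genes), and 9 had an unadjusted p under 0.05 (28.8% of all genes). None was called with a change of at least 2-fold (4.27% of protein-coding genes higher, 3.19% lower), and all 81 intervals lay within a 2-fold change. In 64 of 81 members every mutant library at 35°C was above every mutant library at 20°C, compared with 18.5% of all protein-coding genes. In WT this held for 2 members (19.8% of all genes). Without WT replicate 3 at 20°C it held for 55 members, beside 26.9% of all genes in that comparison of 3 libraries with 2. These counts of members rest on normalized counts and depend on the scaling. Scaled to protein-coding counts the mutant groups overlapped in many of the 64 members. Among them were rps-3, rps-5, rps-14, rps-16, rpl-17, rpl-19, rpl-24.1, rla-2 and rps-8. For rps-8 the highest library at 20°C had 3527 RPKM and the lowest at 35°C 3522. As the members moved together, the counts are not separate results for each gene. The fit shares its estimate of the spread over all groups, and without WT replicate 3 at 20°C it called 4 of 81 members higher in the mutant, rpl-11.1, rpl-35, rps-7 and rps-20, and none lower, beside 7.15% of protein-coding genes higher and 7.10% lower. Same-numbered mutant libraries differed by medians of 0.29, 0.18 and 0.40 in log2 CPM, with 78, 72 and 79 of 81 members higher after HS. The numbers did not pair the mutant libraries (correlations of deviations -0.229, -0.373 and 0.429), so these matches are arbitrary.

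**Figure D4:**
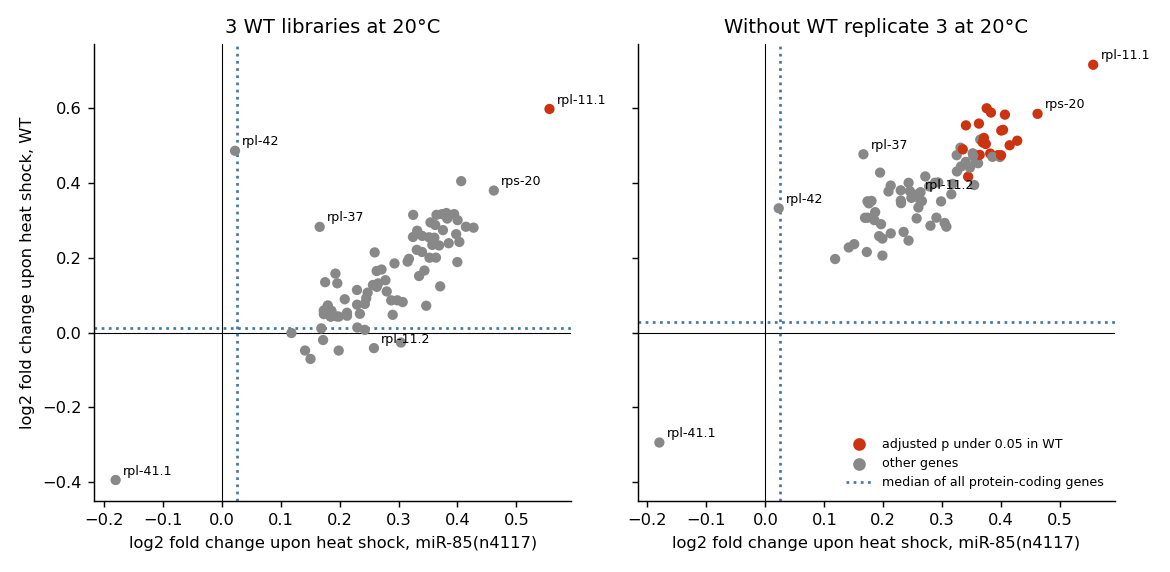
Log2 fold change upon HS of each gene in miR-85(n4117) (x axis) and WT (y axis), with all 3 WT libraries at 20°C on the left and without replicate 3 on the right. Red points had an adjusted p under 0.05 in WT, 1 on the left and 20 on the right, and dotted lines mark the median of all protein-coding genes.

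Marker lists of tissue and stage differed in their response to HS. The 4 molting markers held 0.0451% to 0.152% of protein-coding counts in WT at 20°C and 0.00863% to 0.0332% at 35°C, with a median log2 fold change of -1.81 and 4 of 4 below 0, of which 1 was called lower. In the mutant they held 0.0622% to 0.109% and 0.00859% to 0.0557%, with a median of -0.86 and none called. The 8 oocyte and adult markers held 0.145% to 0.186% in WT at 20°C and 0.316% to 0.904% at 35°C (median 1.12, 8 of 8 above 0, none called), and in the mutant 0.0657% to 0.231% and 0.0514% to 0.664% (median 0.89, 7 of 8 above 0, none called). The 6 hypodermis markers were split. In WT their median was -1.005, with 5 of 6 below 0, 2 called lower and the highest at 2.97. In the mutant it was -0.55, with 4 of 6 below 0, none called and the highest at 2.86. Their summed share had higher means at 35°C, with 0.175% against 0.295% in WT and 0.156% against 0.207% in the mutant (20°C first). The 4 intestine markers had medians of -0.69 in WT, with 3 of 4 below 0, and -0.19 in the mutant, with 2 of 4 below 0. For the 10 germline, 58 sperm, 4 muscle and 4 neuron markers the WT medians were 0.18, 0.13, 0.21 and -0.09. In the mutant they were 0.28, 0.15, 0.40 and 0.06. The part of all these lists in the members' shift was not tested.

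By subunit the members' shifts were alike. In WT the median log2 fold change upon HS was 0.15 for the 31 small subunit genes, 0.13 for the 47 large subunit genes and 0.17 for the 3 stalk genes. In miR-85(n4117) the medians were 0.30, 0.28 and 0.27. The members differed little among themselves, with 77 of 81 within 0.25 of the members' median in WT and 78 of 81 in the mutant.

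The paralog pair rpl-11.1 and rpl-11.2 encodes the large subunit protein that holds the smallest ribosomal RNA at the central protuberance. Its first gene, on the minus strand of chromosome V from 3585312 to 3586064, had 22330, 25654 and 30061 normalized counts in WT at 20°C and 35444, 45490 and 37241 at 35°C. In miR-85(n4117) it had 22902, 22952 and 22326 at 20°C and 32157, 34945 and 33138 at 35°C. All 6 libraries at 35°C were above all 6 at 20°C. The log2 fold change was 0.60 ± 0.16 (SE, adjusted p = 0.0201, edgeR) in WT and 0.56 ± 0.16 (adjusted p = 0.0351) in the mutant. Both calls were close to the threshold. In WT the call was lost without replicate 1 (adjusted p = 0.0594) or replicate 2 at 20°C (0.0681) or replicate 2 at 35°C (0.0789), and in the mutant without any single one of its 6 libraries (0.0622 to 0.119), WT replicate 2 at 20°C (0.0545) or WT replicate 3 at 35°C (0.0515). Without the filter on low counts the adjusted p was 0.0582 in WT and 0.106 in the mutant. The WT call was also lost in a fit of the 6 WT libraries alone (0.117), and the mutant call with the protein-coding total as library size (0.0658) and with the replicate number as a block (0.0572).

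The X-linked copy rpl-11.2, on the minus strand from 2241738 to 2242618, behaved differently in the WT libraries. It had 22080, 25377 and 47199 normalized counts in WT at 20°C and 25450, 31063 and 35462 at 35°C. In miR-85(n4117) it had 18775, 21370 and 22806 at 20°C and 25677, 20956 and 28662 at 35°C. WT replicate 3 at 20°C was the highest of the 12, and groups overlapped in both strains. Its log2 fold change upon HS was -0.04 ± 0.27 in WT (SE, adjusted p = 0.925, edgeR) and 0.26 ± 0.27 in the mutant (adjusted p = 0.562).

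The ratio of the copies within a library does not depend on how libraries are scaled. The ratio of rpl-11.1 to rpl-11.2 counts was 0.637 to 1.01 in WT at 20°C and 1.05 to 1.46 at 35°C, so that these groups did not overlap. The log2 ratio was higher after HS by 0.57 ± 0.27 in WT (SE, n = 3 against 3). The size of this difference depends on WT replicate 3 at 20°C. Its log2 ratio was -0.65, against 0.02 in each of replicates 1 and 2. The two-sided exact permutation p was 0.1, and 3 libraries against 3 cannot give a smaller one. In miR-85(n4117) the ratio was 0.979 to 1.22 at 20°C and 1.16 to 1.67 at 35°C, which overlapped, and the log2 difference was 0.30 ± 0.18 (exact permutation p = 0.2). Over 4 pairs and 4 comparisons no ratio passed 0.05, since none could.

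**Figure D5:**
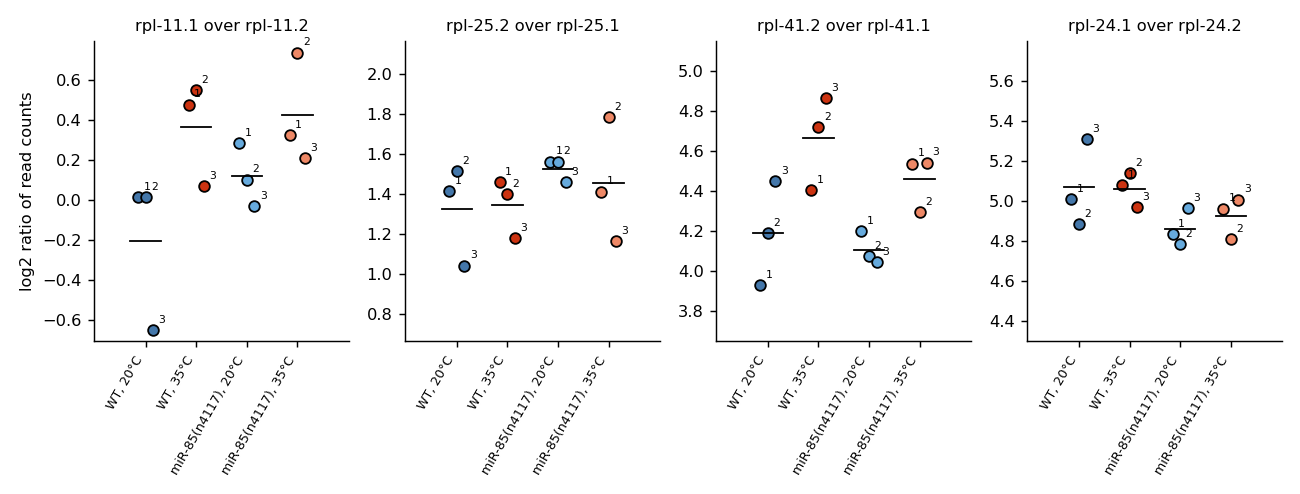
Log2 ratio of read counts of the paralog pairs in each library, with the same span on all 4 y axes. Points are libraries with their replicate number and lines are group means. For rpl-11.1 over rpl-11.2, WT replicate 3 at 20°C lies lowest and both 35°C groups have the higher means.

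The pair rpl-41.1 and rpl-41.2 are neighbours on the plus strand of chromosome I, from 4789190 to 4789592 and from 4790292 to 4790642. Their products are nearly the same short peptide, so reads may have been assigned to the wrong copy or dropped, and the values of both are uncertain. The weaker gene rpl-41.1 had 2612, 2599 and 3167 normalized counts in WT at 20°C and 2365, 2046 and 1962 at 35°C. In the mutant it had 2263, 2562 and 2729 at 20°C and 2126, 2076 and 2467 at 35°C. It was the only member with a negative log2 fold change in both strains, at -0.39 ± 0.14 in WT (SE, adjusted p = 0.0641, edgeR) and -0.18 ± 0.14 in the mutant (adjusted p = 0.42). In normalized counts the WT groups did not overlap and the mutant groups did. Scaled to protein-coding counts the groups of neither strain overlapped. The mutant then had 368 to 450 RPKM at 20°C and 307 to 350 at 35°C. DESeq2 called it lower in WT (-0.40, adjusted p = 0.0296).

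Its neighbour rpl-41.2 had 39863, 47493 and 69356 normalized counts in WT at 20°C and 50180, 53957 and 57274 at 35°C. Its log2 fold change upon HS was 0.04 ± 0.21 in WT and 0.18 ± 0.21 in the mutant (SE, adjusted p = 0.901 and 0.599, edgeR). The ratio of rpl-41.2 to rpl-41.1 was 15.3 to 21.9 in WT at 20°C and 21.2 to 29.2 at 35°C. In the mutant it was 16.53 to 18.4 at 20°C and 19.7 to 23.3 at 35°C, without overlap (log2 difference 0.35 ± 0.09, exact permutation p = 0.1).

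The other pairs kept their ratios more closely. The autosomal rpl-25.2 had 2.06 to 3.44 times the counts of rpl-25.1, which encode the protein where nascent chain factors dock, and the log2 ratio differed by 0.02 ± 0.17 upon HS in WT and -0.07 ± 0.18 in the mutant. The X-linked rpl-25.1 stood 0.72 above its own mean on the log2 scale in WT replicate 3 at 20°C, with 6152, 7125 and 12443 normalized counts in the 3 WT libraries. The counts of rpl-24.1 were 27.6 to 39.7 times those of rpl-24.2, and the log2 ratio differed by -0.01 ± 0.14 in WT and 0.06 ± 0.08 in the mutant (SE, n = 3 against 3 for each ratio). Despite their names, rpl-7 and rpl-7A encode different proteins, as do rpl-36 and rpl-36.A. In WT the log2 fold changes upon HS were 0.20 for rpl-7 and 0.07 for rpl-7A (adjusted p = 0.467 and 0.846), and 0.25 for rpl-36 and 0.41 for rpl-36.A (adjusted p = 0.352 and 0.108).

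Besides rpl-11.1, the members with the highest mean response of both strains were rps-20, rpl-36.A, rpl-27, rpl-35, rps-25, rpl-34 and rpl-38, with log2 fold changes of 0.28 to 0.41 in WT and 0.38 to 0.46 in the mutant. None of these passed the test with all libraries. The gene rps-20 had 15824, 18300 and 24854 normalized counts in WT at 20°C and 22644, 27263 and 26854 at 35°C, and in the mutant 15695, 16575 and 16647 against 22342, 21037 and 23986. The mutant groups were apart and the WT groups overlapped through replicate 3 at 20°C. At the lower end, after rpl-41.1, stood rpl-9, rps-12, rpl-12, which forms the foot of the stalk, rpl-20, rpl-3, whose protein reaches toward the catalytic centre, rps-29 and rpl-11.2, with log2 fold changes of -0.07 to 0.01 in WT and 0.12 to 0.26 in the mutant.

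The sparse gene rpl-42 did not follow the others. It had 109, 83 and 64 normalized counts in WT at 20°C and 127, 116 and 119 at 35°C, and was thus lowest in the library in which most members were highest. In the mutant it had 83, 79 and 97 at 20°C and 75, 95 and 93 at 35°C. The log2 fold change was 0.49 ± 0.21 in WT (SE, adjusted p = 0.119, edgeR) and 0.02 ± 0.21 in the mutant (adjusted p = 0.96).

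The stalk genes were close to each other in their response. The base rla-0 had 90132, 90908 and 147328 normalized counts in WT at 20°C and 119711, 135262 and 131047 at 35°C. The acidic stalk protein genes rla-1 and rla-2 had 31599 to 50167 and 11848 to 17128 in WT at 20°C, and 41622 to 44004 and 14892 to 15919 at 35°C. For all 3 the WT groups overlapped and the mutant groups did not in normalized counts. Scaled to protein-coding counts the mutant groups of rla-1 and rla-2 overlapped too. Their log2 fold changes were 0.23, 0.17 and 0.17 in WT and 0.37, 0.27 and 0.26 in the mutant (SE 0.16 to 0.20, adjusted p = 0.252 to 0.549, edgeR).

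When the counts were scaled to the total on the members themselves, no member was called in either strain, against 5.08% of protein-coding genes higher and 9.72% lower in WT and 4.02% and 8.84% in the mutant. On that scale, chosen after seeing the data, rpl-11.1 was at 0.41 in WT (adjusted p = 0.195) and 0.27 in the mutant (adjusted p = 0.422). The gene rpl-41.1 was at -0.57 (adjusted p = 0.0927) and -0.48 (adjusted p = 0.164). It was called lower in WT without WT replicate 3 at 20°C (adjusted p = 0.0314) or without WT replicate 1 at 35°C (0.0334).

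Other genes of translation differed in their medians, and the shares called over all protein-coding genes were 10.9% higher and 9.94% lower in WT and 7.01% and 6.28% in the mutant. The 2 genes that encode a ribosomal protein fused to ubiquitin, ubl-1 and ubq-2, had a median log2 fold change upon HS of 0.18 in WT and 0.29 in the mutant, and neither was called. Of 6 elongation factor genes, 1 was lower in each strain and none higher, with medians of 0.03 and 0.13. That gene was eef-1A.2, a copy of the factor that delivers aminoacyl-tRNA, which fell by 1.31 ± 0.27 on the log2 scale in WT (SE, adjusted p = 0.00619, edgeR) and by 0.93 ± 0.26 in the mutant (adjusted p = 0.0363). Of 36 initiation factor genes, 2 were lower in WT, ife-5 and pab-2, and none in the mutant, with medians of -0.09 and -0.03. Of 35 genes of ribosome assembly and RNA polymerase I none was called, with medians of -0.13 and -0.02. Of 32 aminoacyl-tRNA synthetase genes only nars-2 was called, lower in the mutant. Of 70 mitochondrial ribosomal protein genes, 3 were higher and 2 lower in WT and 1 lower in the mutant, with medians of 0.09 and 0.03.

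The strains were then compared at each temperature, which asks whether loss of miR-85 moves these genes. At 20°C no member was called by edgeR or DESeq2 in either direction, beside 0.0138% of protein-coding genes higher and 0.0414% lower in the mutant by edgeR, and 0.479% and 0.728% by DESeq2. None had an unadjusted p under 0.05 (9.49% of all genes did), and the smallest adjusted p was 0.526 for rpl-4. The median log2 difference, mutant minus WT, was -0.31 (all protein-coding genes 0.01), and 1 of 81 members was above 0 (51.9% of all genes). Without WT replicate 3 it was -0.08, and with the protein-coding total as library size -0.17. Some lists were lower in the mutant too and others were not, with none of their genes called. The germline and molting markers had medians of -0.07 and -0.09, and the muscle and neuron markers 0.04 and 0.005. The 6 hypodermis markers were at -0.57 with 5 of 6 below 0. The 6 elongation factor genes were at -0.37 with 6 of 6 below 0, and the 2 ubiquitin fusion genes at -0.27. The 4 intestine markers had a median of -0.47 with 4 of 4 below 0 and held 0.0665% to 0.102% of protein-coding counts against 0.0824% to 0.202% in WT. The 8 oocyte and adult markers had a median of -0.40 with 8 of 8 below 0 (0.0657% to 0.231% against 0.145% to 0.186%). Of 58 sperm genes tested, 44 were below 0 with a median of -0.26 (0.234% to 0.299% against 0.300% to 0.326%). Their part in the members' difference was not tested. With the lane as a covariate it was 0.05 with 60 of 81 members above 0, and within lane 3, with 1 WT library, the mutant mean was higher by a median of 0.04 in log2 CPM. The margin was wide, since the 95% interval lay within a 2-fold difference for only 68 of 81 members.

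The members with the most negative difference at 20°C were rpl-11.2 at -0.59 ± 0.30, rps-10 at -0.53 ± 0.28 and rpl-25.1 at -0.52 ± 0.27 (SE, adjusted p = 0.581, 0.579 and 0.583, edgeR). The least negative were rpl-37 at 0.01 ± 0.33, rpl-42 at -0.0034 ± 0.22 and rpl-24.2 at -0.09 ± 0.15. The small subunit gene rps-10 had 28366, 38627 and 58746 normalized counts in WT and 28785, 29156 and 28995 in the mutant. The mutant libraries thus lay at the lowest WT library and the WT values varied widely. In 6 members, rpl-1, rpl-3, rpl-4, rpl-7A, rpl-12 and rps-6, every mutant library was below every WT library, where 8.25% of all protein-coding genes did the same.

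At 35°C no member was called by edgeR or DESeq2, beside 0.00682% of protein-coding genes higher and 0.0136% lower by edgeR and 0.0205% and 0.0411% by DESeq2, and none had an unadjusted p under 0.05 (2.29% of all genes did). The median log2 difference was -0.18 (all protein-coding genes 0.02), and 1 of 81 members was above 0 (52.4% of all genes). All 81 intervals lay within a 2-fold difference in either direction. With the lane as a covariate the median was 0.03 with 58 of 81 above 0. The widest differences were rpl-42 at -0.46 ± 0.21, rpl-7A at -0.38 ± 0.21 and rps-10 at -0.37 ± 0.20, against rpl-41.1 at 0.07 ± 0.15, rps-28 at -0.02 ± 0.15 and rla-2 at -0.04 ± 0.14 (SE, adjusted p = 0.995 to 0.999, edgeR). In rpl-11.1 and rpl-42 every mutant library was below every WT library, as in 3.63% of all protein-coding genes.

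The difference between the strains' responses to HS was tested as an interaction. No member was called by edgeR or DESeq2, beside 0.00% of protein-coding genes by edgeR in either direction and 0.00511% higher by DESeq2, and none had an unadjusted p under 0.05 (2.17% of all genes did). The median was 0.13 (all protein-coding genes 0.02) and 78 of 81 members were above 0 (52.2% of all genes). The median turned to -0.13 without WT replicate 3 at 20°C. The largest positive values were those of rps-27 at 0.33 ± 0.31, rpl-11.2 at 0.30 ± 0.38 and rpl-25.1 at 0.27 ± 0.37, and the most negative those of rpl-42 at -0.46 ± 0.30, rpl-37 at -0.12 ± 0.48 and rpl-11.1 at -0.04 ± 0.22 (SE). For rpl-11.1 the 2 strains' responses therefore differed by less than their error, and the 95% interval of the difference lay within 2-fold for 75 of 81 members.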

How the data were processed

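The authors removed ribosomal RNA, prepared stranded TruSeq libraries, aligned reads to ce11 with STAR (version not given in the sources used here) and counted them per gene with featureCounts 1.6.5, strand setting 2. Ensembl release 100 stands in the headers, while the study's methods name another release. What the authors deposited are raw read counts, whole numbers for 46904 identifiers. Names and WBcel235 positions came from Ensembl release 115 (46817 matched).

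Counts were tested in R 4.3.3 with edgeR 4.0.16 (filterByExpr, TMM, robust quasi-likelihood fit, Benjamini-Hochberg adjustment). HS responses and the interaction used 12 libraries, and strain differences the 6 of that temperature. The SE is the absolute log2 fold change over the square root of F. DESeq2 1.42.0 and the settings in the closing section were alternatives. Log2 CPM used a prior count of 2. The test was also run on simulated counts, drawn separately for each gene. These held no lane effect and no shift shared by the genes of a library, so that run does not bear on either. Members and lists were chosen with earlier results of these data known. Genes were named as the 8 highest and 8 lowest in HS response, the 3 extremes of each strain difference and interaction, the 5 highest and lowest levels, paralogs and stalk genes. The study calls its replicates biological, and the p-values judge differences against the spread between libraries. In WT that spread includes any difference between lanes 3 and 8.

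Same numbers paired the WT libraries of both temperatures (correlation of deviations 0.309, 0.141 and 0.391) and both strains at 35°C (0.513, 0.592 and 0.356), judged from the data.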

Additional observations from a re-analysis of the deposited data

How the results depend on the processing

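Percentages in brackets are the shares of all protein-coding genes called in the same direction and fit. With the replicate block, 1 member was higher upon HS in WT (8.39%) and 0 in miR-85(n4117) (5.45%). In the mutant rpl-11.1 then had an adjusted p of 0.0572 (edgeR), and the block changed no other member's call. Same numbers did not pair the mutant libraries of both temperatures (correlations -0.229, -0.373 and 0.429) or the strains at 20°C. No filter on low counts gave 0 members higher in WT (5.99%) and in the mutant (4.95%). The 6 libraries of 1 strain gave 0 higher in WT (7.45%). The lane as a covariate gave 2 higher in the mutant (7.49%), and DESeq2 gave 1 lower in WT (9.72%). The protein-coding total as library size moved the median of all genes by -0.12 in WT and -0.17 in the mutant. With it 1 member was lower in WT (1912 of 15287 protein-coding genes) and 0 were higher in the mutant (5.19%). Relative to the median of all genes under that setting, the members' median was 0.15 and 0.26. The ribosomal protein total, added after seeing the data, gave 0 higher in WT (5.08%) and in the mutant (4.02%). With it rpl-42 was at -0.077 in WT without WT replicate 3 at 20°C.

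Leaving out 1 library in turn gave 0 to 20 members higher in WT (5.36% to 12.95%) and 0 to 1 lower, with medians of 0.014 to 0.40. The 1 lower, without WT replicate 1 at 35°C, stood beside 1618 of 15491 protein-coding genes. In the mutant 0 to 4 members were higher (3.83% to 8.10%). The median strain difference at 20°C ranged from -0.48 to -0.080. It was 0.050 with the lane, 0.030 with the lane and without WT replicate 3, and -0.077 by DESeq2 without that library. DESeq2 without that library, also added later, gave 29 members higher upon HS in WT (9.93%). As a share of all counts, ribosomal RNA included, the members held 8.73% in WT and 11.3% in the mutant at 20°C, and 11.3% and 11.7% at 35°C. The causes were not tested. WT replicate 3 at 20°C had 9505142 protein-coding counts, the fewest.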
